A study of Macaca mulatta with 24 samples.

Results

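The comparison described here is that of the low drinkers (LD) and the controls of cohort 7b, 6 of the 24 rhesus macaques in the series. The 3 LD and the 3 control animals were taken by the cohort and drinking category in the sample labels, and no measured value was used to choose them. The study joined low and binge drinkers in its lower drinking group, and the labels have no separate category for binge drinkers. Whether any of the 3 LD animals was a binge drinker is therefore not known here. The series is RNA-Seq of the nucleus accumbens core (NAcc) of unrelated adult male macaques from 4 cohorts, which held controls and drinkers from low to very heavy, with 1 library for each animal. LD 1, LD 2 and LD 3 drank 1.43, 1.82 and 2.07 g/kg of ethanol a day (1.77 ± 0.32, mean ± SD, n = 3), and the controls drank none. All 6 animals lived in the room of their cohort and went through schedule-induced polydipsia and the long period of daily sessions on drinking panels. The drinkers were offered ethanol and water, whereas both spouts gave the controls water and a maltose dextrin solution matched their calories. Tissue was taken without imposed abstinence, as a small circular dissection of the core that was meant to leave out the white matter above it. The animal numbers follow the order of deposit, name the animals only and pair none of them. No animal was measured more than once, so the spread within a group joins biological and technical differences.

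The nucleus accumbens core is part of the ventral striatum, and it links cortical and limbic input to motivated behaviour, drinking included. Most of its neurons are GABAergic medium spiny neurons, which carry dopamine receptors and opioid peptide precursors and are rich in the signalling protein DARPP-32, made by PPP1R1B. Fibre tracts, the septum, cholinergic basal forebrain and cortex lie close by, so RNA from a small dissection may also hold transcripts of oligodendrocytes and of other neurons.

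The values are TPM, transcript abundances corrected for gene length and scaled so that each animal's genes share a fixed total. The depth behind a value is therefore unknown, and no counting error can be given. Of 17208 gene symbols, 9197 averaged 10 TPM or more across the 24 animals and entered the tests. Differences between groups are given as the difference of the mean log2(TPM + 1), LD minus control, which understates the change of weakly expressed genes.

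Control 3 stood apart from the other animals in the genes that define the tissue. PPP1R1B was at 2954, 1371 and 304 TPM in Control 1, 2 and 3 and at 3336, 1142 and 1832 TPM in LD 1, 2 and 3. The lowest of the 18 animals outside cohort 7b had 1051 TPM, so Control 3 alone fell below all of them. ADORA2A, the adenosine receptor of striatopallidal neurons, was at 371, 154 and 12.5 TPM in the controls and at 355, 125 and 176 TPM in LD animals. Of the 29 striatal neuron genes tested (of 34 listed, 32 of them in the table), 26 had their lowest value of all 24 animals in Control 3 and 2 in LD 2. The summed level of the list was 1547 TPM in Control 3, against 6918 to 17569 TPM in the other 5 animals. All 7 striatal genes followed one by one here were still measured in Control 3, at values from 8.14 TPM for DRD1 upwards.

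Control 3 also had the most myelin RNA. MOBP, a gene of a myelin basic protein of oligodendrocytes, was at 144, 246 and 580.5 TPM in the controls and at 106, 283 and 454 TPM in LD animals. Of 34 myelin genes, 32 had their highest value of the 24 animals in Control 3 and the other 2 in LD 3, whose MBP level of 1801 TPM was the highest of all. The myelin genes summed to 17773 TPM in Control 3 and to 4959 to 11132 TPM in the other 5 animals.

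Genes of other regions marked 2 of the libraries most strongly, and those named in this paragraph were picked after their values were seen. OXT, the oxytocin precursor, was at 43.1 TPM in Control 3 and at 0.56 to 0.89 TPM in the other 5. NGFR, a neurotrophin receptor of cholinergic basal forebrain neurons, was at 185 TPM in Control 3 and at 0.22 to 8.91 TPM in the others, and AVP, the vasopressin precursor, at 89.8 and at 9.12 to 18.04 TPM. Control 2 also held such transcripts, at a lower level. A list of 12 peptide and basal forebrain genes summed to 1293 TPM in Control 3, 355 TPM in Control 2 and 118 to 128 TPM in the others. The median of the 24 animals was 143 TPM. Without Control 3, all 9 tested genes of this list were still lower in LD animals (median −0.695). LD 2 carried genes of cortical excitatory neurons instead, as did several animals outside the cohort at lower levels. SLC17A7, the vesicular glutamate transporter of cortical projection neurons, was at 722 TPM in LD 2, the highest of 24 animals, and at 23.0 TPM in LD 1, 3.06 TPM in LD 3 and 0.90 to 1.24 TPM in the controls. In the 18 animals outside the cohort it ran from 0.87 to 348 TPM, with a median of 7.65 TPM. TBR1 and NEUROD6, transcription factors of cortical neurons, were at 48.3 and 47.2 TPM in LD 2 and at no more than 5.04 and 1.75 TPM elsewhere in the cohort. LD 3 differed in another way, with ribosomal protein genes summing to 167070 TPM against 91231 to 111460 TPM in the other 5, and with 23 of 78 of them at their highest of the 24 animals. Correlations of log2(TPM + 1) between Control 3 and the other 5 animals reached at most 0.928 (Pearson, over the tested genes), and the other 5 correlated with one another at 0.9499 to 0.985. No pair of libraries held identical values. Blood contributed little, with HBB at 1.04 to 4.96 TPM.

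**Figure D1:**
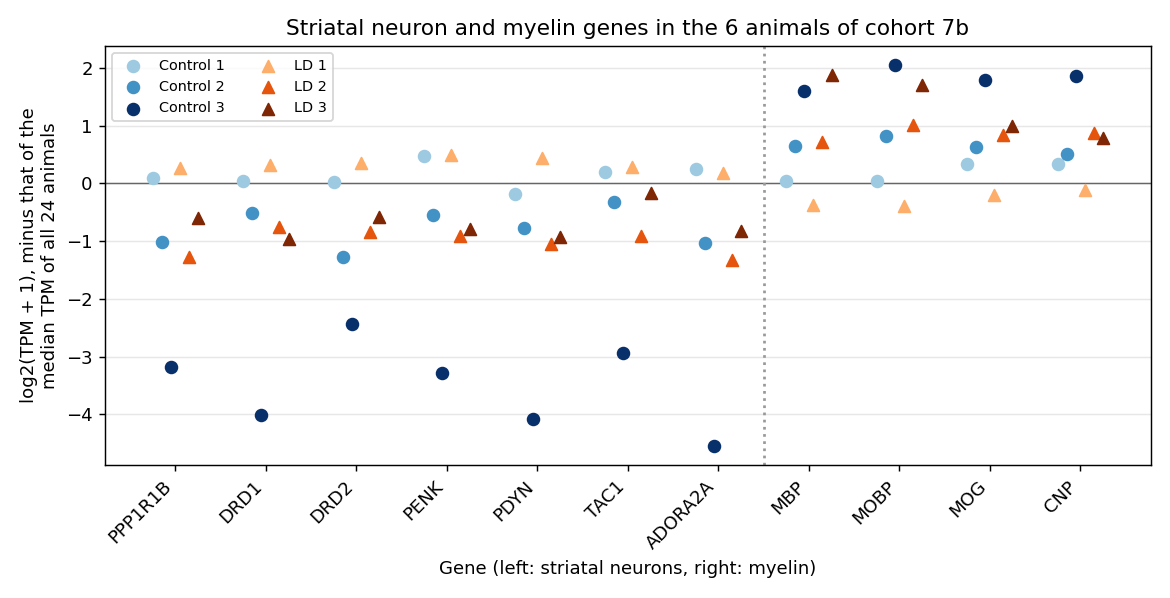
Level of 7 striatal neuron genes (left) and 4 myelin genes (right) in the 6 animals of cohort 7b, as log2(TPM + 1) minus that of the median TPM of all 24 animals. Circles are controls, triangles are LD animals and each point is 1 library. Control 3 lies lowest for all 7 striatal genes and highest for MOBP, MOG and CNP, and LD 3 is highest for MBP.

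The striatal neuron genes were higher in LD animals than in controls on average, and Control 3 set this difference. Of the 29 genes, 27 were higher and 2 lower in LD animals, with a median log2 difference of 0.76, when 3121 of all 9197 genes were higher and the median of all genes was −0.09. Without Control 3 the counts were 11 higher and 18 lower and the median was −0.07. DRD1, the dopamine receptor of direct-pathway neurons, was at 150, 102 and 8.14 TPM in the controls and at 182, 86.4 and 74.6 TPM in LD animals, and the groups overlapped (log2 difference 1.03, SE 0.96, and −0.23 without Control 3). DRD2, the receptor of the indirect pathway, was at 249, 100.3 and 44.1 TPM and at 311, 135 and 162 TPM (log2 difference 0.87, and 0.26 without Control 3). PENK, the enkephalin precursor, was at 3577, 1773 and 265 TPM and at 3641, 1377 and 1491 TPM, with a difference of 0.72 that became −0.36. Control 1 and LD 1 had the highest levels of each of these genes. PDYN, the dynorphin precursor, TAC1, the substance P precursor, PPP1R1B and ADORA2A had differences of 1.16, 0.76, 0.83 and 1.12 with all 6 animals and of −0.04, −0.20, −0.07 and −0.27 without Control 3. In RNA of whole tissue, fewer cells of a type and less RNA in each of them cannot be told apart.

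The score of this list, the mean of its 29 genes after each was centred on the 24 animals, was 0.37, −0.53 and −2.74 in the controls and 0.56, −0.65 and −0.47 in LD animals. The difference of 0.78 was smaller than the SD of the controls (1.60, n = 3) and became −0.11 without Control 3.

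The myelin genes were all lower in LD animals, 34 of 34, with a median log2 difference of −0.38, and this too rested on Control 3. Without it 22 were higher and 12 lower, with a median of 0.08. With all 6 animals and TMM rescaling, which aligns libraries on a trimmed mean of their log ratios, 5 were higher and 29 lower. MBP, myelin basic protein, was at 502, 769 and 1497 TPM in the controls and at 380, 808 and 1801 TPM in LD animals, and differed by −0.02 (SE 0.59), or by 0.11 after TMM rescaling. MOG, a surface protein of myelin, was at 206, 254 and 568 TPM and at 143, 293 and 327 TPM (log2 difference −0.37, and 0.07 without Control 3). CNP, an enzyme of oligodendrocytes, was at 331, 374 and 948 TPM and at 242, 479 and 453 TPM (−0.39, and 0.09 without Control 3). LD 1 was the lowest of the 6 animals for each of the 4 myelin genes followed. MOBP differed by −0.20, and by 0.34 without Control 3. The myelin score was 0.22, 0.42 and 1.65 in the controls and −0.28, 0.70 and 0.75 in LD animals, a difference of −0.37, or 0.07 without Control 3. None of the 29 striatal and 34 myelin genes reached an unadjusted p under 0.05, and in none were the groups apart.

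**Figure D2:**
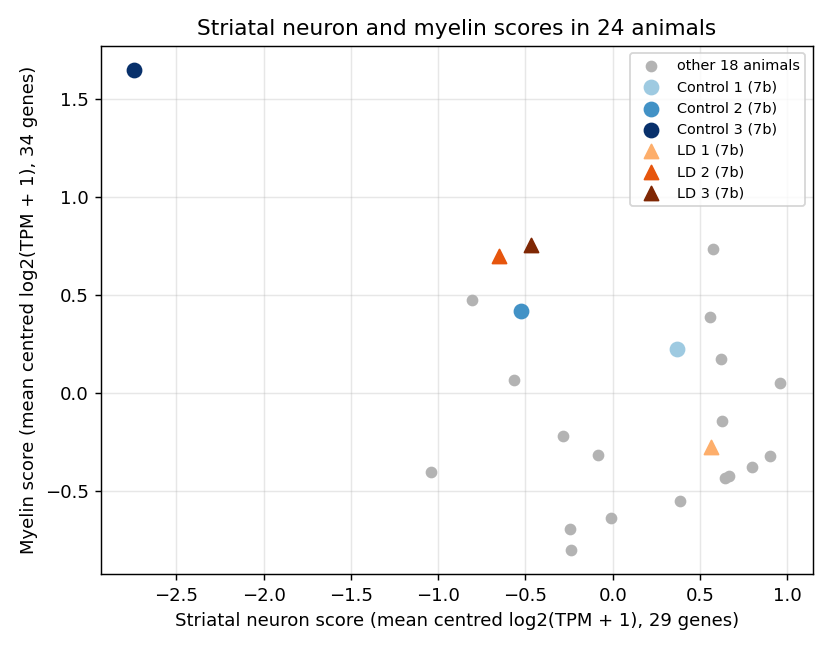
Striatal neuron score against myelin score, each the mean of centred log2(TPM + 1), in all 24 animals. Grey points are the 18 animals outside cohort 7b, circles the controls and triangles the LD animals of cohort 7b. Control 3 lies alone at −2.74 and 1.65, whereas the other 18 animals range from −1.04 to 0.96 and from −0.80 to 0.73.

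Across the genome, no gene passed an adjusted p of 0.05 between LD animals and controls of cohort 7b (0 of 9197, 0.0%, limma with Benjamini-Hochberg adjustment), and the smallest adjusted p was 0.992. At an unadjusted p under 0.05, 28 genes were higher (0.304%) and 153 lower (1.66%) in LD animals. Levels of the groups did not overlap for 66 genes that were higher (0.718%) and 490 that were lower (5.33%). Only 20 assignments of 3 animals against 3 exist, and the smallest two-sided p of an exact permutation test is 0.10, so groups that do not overlap are the most extreme outcome for a single gene. Without Control 3 there were again 0 genes at an adjusted p of 0.05, with 21 higher (0.228%) and 84 lower (0.913%) at an unadjusted p under 0.05, and 13 and 57 of the genes were shared with those from all 6 animals. Leaving out Control 1, by contrast, gave 223 higher and 323 lower genes, leaving out Control 2 gave 29 and 69, and leaving out LD 3 gave 95 and 106. TMM rescaling moved the median of all genes by 0.12, from −0.09 to 0.04, and gave 84 higher (0.913%) and 81 lower genes (0.881%) at an unadjusted p under 0.05, so the excess of lower genes depended on how the values were scaled. The medians of lists given below are therefore to be read against the median of all genes, −0.09 with all 6 animals, −0.10 without Control 3 and 0.04 after TMM rescaling. The adjusted p was 0.992 for each tested gene named below, apart from MBP (0.999).

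The gene with the smallest p was IFI27, a small mitochondrial and nuclear envelope protein induced by interferon. It was at 82.1, 80.8 and 83.9 TPM in the controls and at 40.6, 41.99 and 30.6 TPM in LD animals. The controls lay within 4 TPM of one another and each of them was well above every LD animal (log2 difference −1.12, SE 0.18, unadjusted p = 0.000287, −1.10 without Control 3). TMEM255A, which encodes a membrane protein, was at 22.1, 17.5 and 23.5 TPM in the controls and at 8.26, 8.54 and 6.84 TPM in LD animals (log2 difference −1.31, SE 0.21). TAC3, the neurokinin B precursor made by a class of primate striatal interneurons, was at 114, 229 and 159 TPM in the controls and at 45.6, 27.9 and 61.7 TPM in LD animals (log2 difference −1.88, SE 0.34). Both genes were lower in every LD animal than in every control, and Control 3 lay between or beside the other controls. CRIP1, a small LIM domain protein, was at 33.0, 27.7 and 22.9 TPM and at 13.8, 13.9 and 14.5 TPM (log2 difference −0.92, SE 0.20, −1.05 without Control 3).

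PYGM, the glycogen phosphorylase of muscle and astrocytes, was at 139.95, 114 and 142 TPM in the controls and at 79.5, 74.6 and 72.6 TPM in LD animals (log2 difference −0.79, SE 0.17). IGSF1, a membrane glycoprotein of the immunoglobulin superfamily, was at 29.6, 41.99 and 78.8 TPM and at 14.04, 13.0 and 18.7 TPM, and its difference of −1.55 was −1.17 without Control 3. IGFBP7, a secreted protein of blood vessels, was at 64.0, 84.1 and 84.1 TPM and at 44.9, 48.5 and 34.4 TPM (log2 difference −0.85). The groups were apart for these genes as well, and for ITPKB, an inositol phosphate kinase, FCN3, a lectin of the complement system, and PBXIP1, which differed by −1.05, −0.99 and −0.67. ITPKB ran from 72.9 to 135 TPM in controls and from 39.7 to 50.8 TPM in LD animals. All 10 leading genes that were lower in LD animals kept an unadjusted p under 0.05 without Control 3.

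Among the 10 leading genes that were higher in LD animals, ADSL had the smallest p. It encodes adenylosuccinate lyase, an enzyme of purine synthesis, and was at 28.2, 24.3 and 28.0 TPM in the controls and at 43.9, 39.2 and 44.1 TPM in LD animals (log2 difference 0.64, SE 0.16, unadjusted p = 0.00471, 0.67 without Control 3). ECI1, an isomerase of mitochondrial fatty acid oxidation, was at 65.7, 96.6 and 64.2 TPM and at 121, 117 and 137 TPM (log2 difference 0.74, SE 0.21). DIO2, the deiodinase that activates thyroid hormone, was at 12.2, 11.2 and 11.7 TPM and at 15.2, 39.5 and 28.3 TPM (log2 difference 1.08, SE 0.33). The controls were close together for DIO2, whereas the LD animals spread over more than 20 TPM.

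For other genes of this group the lowest value was that of Control 3. CD3D, a subunit of the T cell receptor complex, was at 9.03, 3.62 and 1.35 TPM in the controls and at 25.4, 10.7 and 22.5 TPM in LD animals (log2 difference 2.02, SE 0.55, 1.50 without Control 3). GCHFR, which regulates the first step of tetrahydrobiopterin synthesis, was at 67.7, 58.6 and 30.6 TPM and at 104, 93.7 and 92.2 TPM (log2 difference 0.95, 0.61 without Control 3). KLK8, the brain protease neuropsin, was at 11.6, 7.74 and 2.00 TPM and at 17.5, 16.7 and 19.0 TPM (log2 difference 1.44, 0.84 without Control 3). ADAMTSL5, a protein of the extracellular matrix, and WFIKKN1, a secreted inhibitor, differed by 2.04 and 0.64. A pair of muscle genes had their highest level in LD 2. SLN, sarcolipin, was at 2.46, 1.84 and 0.30 TPM and at 11.5, 69.4 and 3.84 TPM. Its difference of 2.79 was 1.73 without LD 2 and 2.37 without Control 3. TNNT2, cardiac troponin T, was at 36.9, 18.1 and 7.94 TPM and at 55.2, 137 and 31.7 TPM, and its groups overlapped. Its difference of 1.76 was 1.20 without LD 2 and 1.24 without Control 3. Without Control 3, 8 of these 10 genes kept an unadjusted p under 0.05, and WFIKKN1 and TNNT2 did not (unadjusted p = 0.051 and 0.052).

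**Figure D3:**
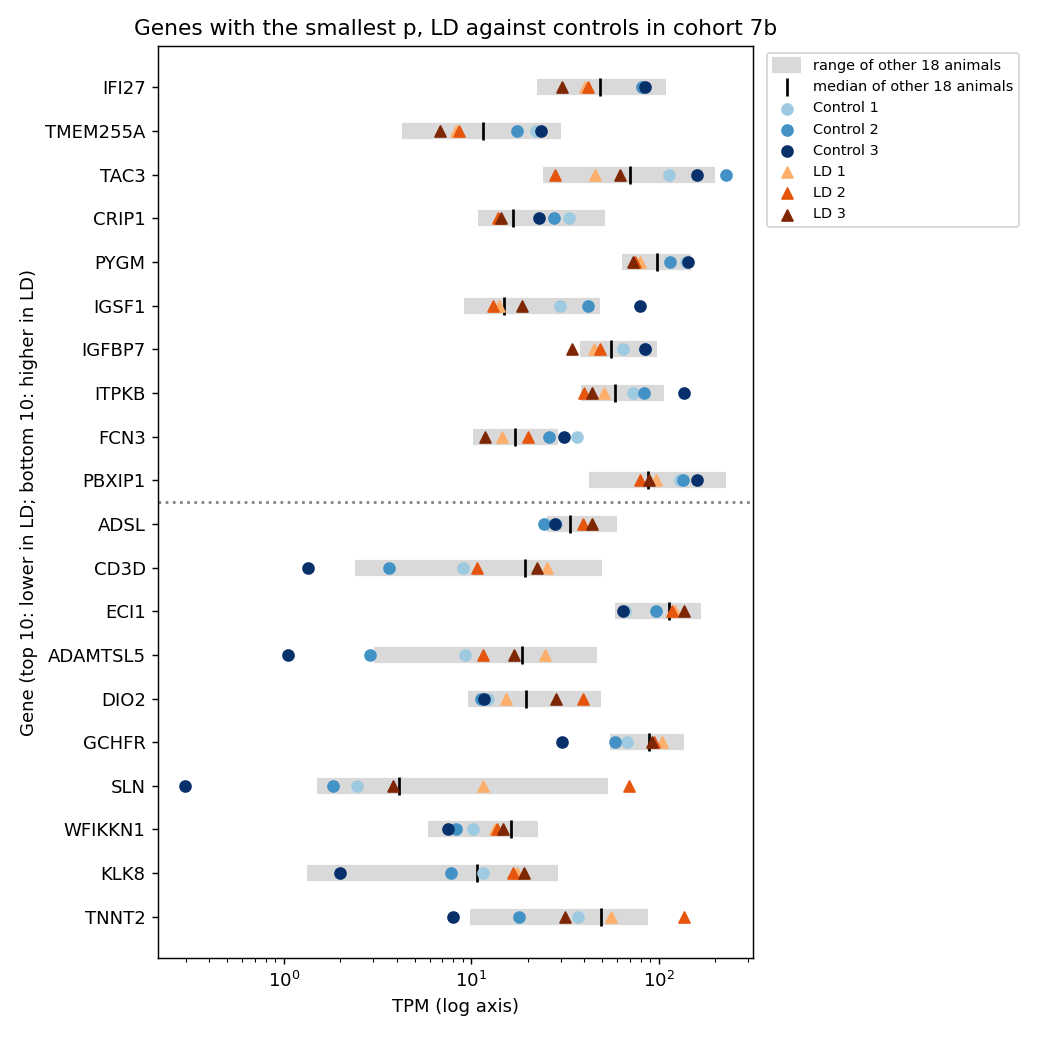
TPM (log axis) of the 10 genes lower (top) and the 10 genes higher (bottom) in LD animals with the smallest p. Circles are controls, triangles LD animals, grey bars the range and black ticks the median of the 18 animals outside cohort 7b. The groups do not overlap for 19 of the 20 genes, the exception being TNNT2.

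Set against the 18 animals outside the cohort, it was mostly the controls that lay off the common level of these 20 genes. Of those 18 animals 13 were drinkers and 5 controls, so the common level is mostly that of drinkers. On the log2 scale, the mean of the cohort 7b controls was farther from the median of those 18 animals than the mean of the LD animals for 19 of the 20 genes, 10 of 10 lower and 9 of 10 higher ones, when the same held for 5145 of all 9197 genes (55.9%). The 20 genes were picked for a small p between these same groups, so the share over all genes is not a like background for them. IFI27 had a median of 48.7 TPM in the 18 animals, and the controls of cohort 7b lay 0.75 above it and the LD animals 0.37 below it. For IGSF1 the controls lay 1.58 above and the LD animals 0.02 above, and for CD3D the controls lay 2.09 below and the LD animals 0.07 below. For ADSL the distances were nearly equal, 0.32 below and 0.32 above. SLN was the exception, with controls 1.13 below and LD animals 1.66 above.

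Most tested genes of blood vessels were lower in LD animals, with log2 differences from −0.92 to 0.01. Of 13 tested genes (27 listed, 26 in the table), 12 were lower and 1 higher, the median log2 difference was −0.37, which is 0.28 below that of all genes, and 4, namely CRIP1, MYL9, CLDN5 and TAGLN, were lower at an unadjusted p under 0.05 where 1.66% of all genes were. CRIP1 and TAGLN had led an earlier comparison over all cohorts that included these animals, so their part in this count is not independent of it. The list summed to 539, 535 and 487 TPM in the controls and to 411, 480 and 307 TPM in LD animals, so the groups did not overlap. CLDN5, the tight junction protein of brain endothelium, was at 74.3, 67.2 and 57.9 TPM and at 47.9, 52.7 and 33.7 TPM (log2 difference −0.58, SE 0.22, −0.67 without Control 3). MYL9, a myosin light chain of smooth muscle, was at 36.4, 32.5 and 44.8 TPM and at 25.6, 19.4 and 26.0 TPM (log2 difference −0.66, SE 0.20, −0.54 without Control 3). TAGLN, a protein of smooth muscle, was at 48.6, 38.9 and 27.1 TPM and at 30.0, 19.7 and 20.8 TPM, so that LD 1 lay above the lowest control (log2 difference −0.66, SE 0.26, −0.88 without Control 3). LD 3 had the lowest value of the 24 animals for 4 of the 13 genes. Without LD 3 the median of the list was −0.29, and without Control 3 it was −0.51 with 12 of 13 still lower. After TMM rescaling 10 were lower and 3 higher. No listed gene was at 0 in all 6 animals. COL1A1 and COL1A2, collagen genes of fibroblasts singled out after their values were seen, stayed at or under 1.44 TPM.

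Microglial genes were lower in LD animals, 16 of 16 tested (22 listed), with a median of −0.26, or 0.17 below all genes. Their sum was 1012, 1533 and 1289 TPM in the controls and 883, 990.4 and 949 TPM in LD animals, again with no overlap. On the score of the list, however, the groups overlapped. It was −0.03, 0.59 and 0.32 in the controls and −0.15, 0.07 and 0.03 in LD animals. CD74, the invariant chain of class II molecules, was at 212, 192 and 255 TPM in the controls and at 132, 152 and 127 TPM in LD animals (log2 difference −0.67, SE 0.18, −0.56 without Control 3). The 3 chains of complement C1q were lower together. C1QA was at 81.1, 139 and 87.6 TPM and at 68.8, 56.9 and 63.1 TPM (log2 difference −0.66, SE 0.23), and C1QB and C1QC differed by −0.57 and −0.59. Control 2 was the highest of the 6 animals for all 3 chains. The 4 genes named were the ones at an unadjusted p under 0.05 (1.66% of all genes were lower at that level), and their groups did not overlap. Without Control 3 all 16 genes were still lower with a median of −0.28, and without Control 2 the median was −0.17 and without Control 1 −0.52. After TMM rescaling 13 were lower and 3 higher. P2RY12 and CX3CR1, receptors of resting microglia added after their values were seen, differed by −0.14 and −0.09, or by 0.21 and 0.19 without Control 2, and TMEM119, at 0.66 to 1.29 TPM, was too low to test.

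Of 23 astrocyte genes, 22 were lower in LD animals, with a median of −0.27, or 0.18 below all genes, and for 5 of them the groups did not overlap (5.33% of all genes were lower in that way). AQP4, the water channel of astrocyte endfeet, was at 280, 361 and 354 TPM in the controls and at 163, 237 and 207 TPM in LD animals (log2 difference −0.72, SE 0.21, −0.66 without Control 3). GJB6, the gap junction protein connexin 30, was at 102, 106 and 157 TPM and at 74.1, 71.9 and 51.2 TPM (log2 difference −0.87, SE 0.24, −0.67 without Control 3). SLC4A4, a bicarbonate transporter, and FGFR3, a growth factor receptor, differed by −0.59 and −0.56. GFAP, the filament protein of astrocytes, was also singled out afterwards and had overlapping groups, at 887, 2655 and 6255 TPM in the controls and 1390, 2139 and 2611 TPM in LD animals. Without Control 3, 19 of the 23 genes were lower with a median of −0.22, and after TMM rescaling 21 were lower with a median of −0.15. Summed over the list, the groups overlapped, with 18298 to 30468 TPM in controls and 17979 to 19228 TPM in LD animals.

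All 15 tested genes of the interferon response (41 listed) were lower in LD animals, with a median of −0.40, or 0.32 below all genes, and 14 of 15 were lower without Control 3 (median −0.31). The median was −0.24 without LD 1 and −0.57 without LD 2. TMM rescaling left 13 lower. Summed over the list, the groups overlapped, with 1405 to 1740 TPM in controls and 1149 to 1686 TPM in LD animals. They overlapped on the score of the list as well. IFI27 led the list, and apart from it 1 gene had an unadjusted p under 0.05 (1.66% of all genes were lower at that level). This was IFI35, at 16.0, 17.1 and 20.8 TPM in the controls and at 11.8, 13.2 and 13.0 TPM in LD animals (log2 difference −0.47, SE 0.20, −0.36 without Control 3). MX1, an antiviral GTPase, was at 19.4, 26.3 and 55.1 TPM and at 9.70, 32.1 and 9.68 TPM, so LD 2 lay among the controls (log2 difference −1.02, SE 0.52). TNFSF10, the death ligand TRAIL, was at 32.4, 31.5 and 18.2 TPM and at 14.1, 24.5 and 11.2 TPM (log2 difference −0.72, SE 0.33, −0.97 without Control 3). TNFSF10, CRIP1 and TAGLN had led an earlier comparison of LD animals with controls over all cohorts, which included these 6 animals, so their direction here is not independent of it.

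Enzymes that handle ethanol, acetaldehyde and acetate were lower in 8 of 9 cases (17 listed), with a median of −0.30, which is 0.21 below all genes, or −0.18 without Control 3, which is 0.09 below. ALDH2, the mitochondrial aldehyde dehydrogenase that clears acetaldehyde, was at 459, 613 and 620 TPM in the controls and at 392, 344 and 463 TPM in LD animals (log2 difference −0.49, SE 0.21, −0.42 without Control 3). ACSS1, which turns acetate into acetyl-CoA in mitochondria, was at 40.9, 49.3 and 53.5 TPM and at 27.8, 38.8 and 35.2 TPM (log2 difference −0.49, SE 0.20). It was the 1 gene of the list at an unadjusted p under 0.05, where 1.66% of all genes were lower. ALDH3A2, a fatty aldehyde dehydrogenase, differed by −0.41, and ALDH1A1 was the 1 gene that was higher, by 0.46. CYP2E1 and the class I alcohol dehydrogenase ADH1B, looked up afterwards, were at no more than 3.75 and 0.21 TPM.

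Genes of neurons gave a mixed picture that turned with Control 3. Of 26 glutamate signalling genes tested, 18 were higher and 8 lower in LD animals (median 0.17), against 6 higher and 20 lower without Control 3 (median −0.17). The postsynaptic scaffold SHANK3 was at 150, 119 and 39.7 TPM in the controls and at 146, 127 and 171 TPM in LD animals (log2 difference 0.71, SE 0.45, 0.14 without Control 3), and the receptor subunit GRIA4 differed by −0.73. Of 33 glutamatergic and 11 GABAergic synapse genes that the study had listed, 22 and 8 were higher (medians 0.04 and 0.08), and 6 and 2 were higher without Control 3 (medians −0.16 for both). That study had chosen these genes on a set of animals that included the controls used here, so the lists are not independent evidence of a direction. NPTX2, the neuronal pentraxin that leads the glutamatergic list by p, was at 19.7, 12.3 and 13.4 TPM and at 31.4, 30.7 and 11.7 TPM.

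GABA and glycine genes were 8 higher and 15 lower (median −0.15, −0.26 with 4 higher and 19 lower without Control 3, 0.20 without LD 3, and −0.03 with 11 higher and 12 lower after TMM rescaling), and 2 of 23 were lower at an unadjusted p under 0.05 against 1.66% of all genes. ABAT, the enzyme that breaks down GABA, was at 340, 343 and 334 TPM in the controls and at 286, 225 and 228 TPM in LD animals (log2 difference −0.47, SE 0.18, −0.48 without Control 3). SLC6A11, a GABA transporter of astrocytes, was at 42.1, 148 and 331 TPM and at 41.1, 51.5 and 35.7 TPM, a difference of −1.57 that was −0.89 without Control 3. Control 1 lay within the range of the LD animals. Control 3 was highest and Control 2 next, as for the summed peptide and basal forebrain genes above, and whether these go together was not tested. GABRG1, a receptor subunit, differed by −0.63. Of 10 interneuron genes tested, 4 were higher and 6 lower (median −0.27), against 1 higher and 9 lower without Control 3 (median −0.45). TAC3 was the 1 gene of them at an unadjusted p under 0.05, where 1.66% of all genes were lower. SST, somatostatin, differed by −0.32, and SLC18A3, the vesicular acetylcholine transporter, was at 57.2 TPM in Control 3 and at 2.52 to 9.93 TPM in the other 5 animals. Dopamine and opioid genes were 6 higher and 5 lower with Control 3 and 2 higher and 9 lower without it, and their leading gene DRD3, a dopamine receptor of the ventral striatum, differed by 1.12 and by 0.34.

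Immediate-early genes, which neurons induce upon activity, were higher in LD animals for 16 of 19 tested (28 listed), with a median of 0.45, and for 13 of 19 without Control 3, with a median of 0.25. NR4A1 was at 23.3, 15.6 and 13.4 TPM in the controls and at 38.7, 32.9 and 19.4 TPM in LD animals (log2 difference 0.75, SE 0.31, 0.58 without Control 3). ARC, a synaptic plasticity gene, was at 15.6, 10.3 and 7.87 TPM and at 19.5, 20.2 and 14.5 TPM (log2 difference 0.67, SE 0.28, 0.46 without Control 3). FOSL2 differed by 1.17 and BTG2, a growth arrest gene, by −0.58. LD 3 overlapped the controls for NR4A1, ARC and FOSL2. These 3 genes were the ones higher at an unadjusted p under 0.05, where 0.304% of all genes were, and none was without Control 3. Summed over the list, the groups overlapped, with 310 to 536 TPM in controls and 363 to 679 TPM in LD animals. Potassium channel genes were 29 higher and 11 lower, with a median of 0.25 that was 0.01 without Control 3, and their leading genes KCNG1 and KCNN1 differed by 0.70 and 0.69. Of 24 synaptic vesicle genes, 16 were higher with a median of 0.02. The median was −0.12 without LD 2, 0.38 without LD 3 and 0.14 with 18 higher after TMM rescaling. STX1A, a syntaxin of the release machinery, was at 87.9, 83.7 and 53.6 TPM and at 102, 342 and 102 TPM, and SV2B, a synaptic vesicle glycoprotein, was at 95.8 TPM in LD 2. The differences of STX1A and SV2B, 1.05 and 1.35, were 0.47 and 0.64 without LD 2, the animal with cortical transcripts.

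Ribosomal protein genes were higher in LD animals for 74 of 78 tested, by a median of 0.15, and 58 of 78 were higher without Control 3 (median 0.08). The order turned without LD 3, with a median of −0.09. RPS20 was at 1815, 1532 and 1334 TPM in the controls and at 1563, 1466 and 3392 TPM in LD animals, so only LD 3 lay above the controls.

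**Figure D4:**
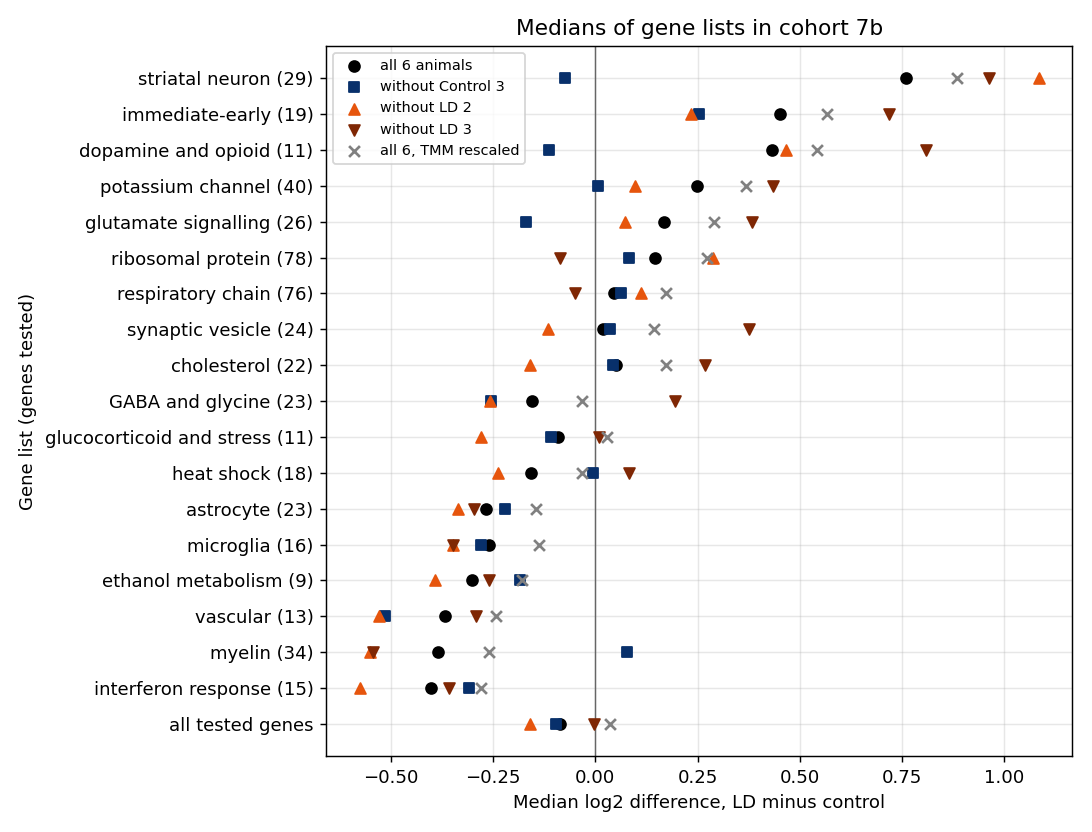
Median log2 difference, LD minus control, of 18 gene lists and of all tested genes in cohort 7b, with all 6 animals (black), without Control 3 (squares), without LD 2 (upward triangles), without LD 3 (downward triangles) and after TMM rescaling (crosses), with the number of genes tested in parentheses. The astrocyte, microglia, vascular, interferon and ethanol metabolism medians stay below 0 in all 5 versions, whereas the striatal neuron and myelin medians cross 0 without Control 3.

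Cohort 7a held the only other LD animals with controls of their own, 3 LD animals and 2 controls, none of them shared with cohort 7b. The LD effect differed between the cohorts for 0 of 9197 genes at an adjusted p of 0.05 (0.0%, limma interaction term, smallest adjusted p 0.257) and for 175 at an unadjusted p under 0.05 (1.90%), of which 30 were higher and 145 lower in cohort 7b. The lowest p was that of TMEM255A, which was lower by 1.31 on the log2 scale in cohort 7b and higher by 0.78 (SE 0.22) in cohort 7a (adjusted p = 0.257). In cohort 7a it was at 11.5, 15.6 and 14.02 TPM in LD animals and at 6.79 and 8.29 TPM in controls, so the order of the groups was opposite. VSTM2A, a secreted protein with an immunoglobulin domain, was at 94.1, 187 and 137 TPM in the controls and at 84.9, 71.2 and 60.7 TPM in LD animals of cohort 7b (log2 difference −0.90, SE 0.27), and differed by 0.85 (SE 0.31) in cohort 7a (adjusted p of the difference 0.975). TAC3 differed by −1.88 and by 0.73 (SE 0.47), and its difference between cohorts had an adjusted p of 0.975.

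Of the 20 leading genes, 7 had the same sign in cohort 7a, 5 of the 10 lower and 2 of the 10 higher ones. IFI27 differed by −0.26 (SE 0.22) in cohort 7a, CRIP1 by −0.40 (SE 0.30), PBXIP1 by −0.59 (SE 0.37) and GCHFR by 0.48 (SE 0.29), and the difference between cohorts was not significant for any of these (adjusted p = 0.975, and 0.982 for PBXIP1). Of the 490 genes whose levels were lower without overlap in cohort 7b, 225 were lower in cohort 7a (45.9%), when 34.4% of all genes were, and of the 66 higher ones 33 were higher there, when 65.6% of all genes were. The lists gave these counts in cohort 7a. Vascular genes were 12 of 13 lower (median −0.25), microglial genes 14 of 16 (median −0.57), astrocyte genes 21 of 23 (median −0.29) and interferon genes 12 of 15 (median −0.30), when the median of all genes was 0.10. C1QA, C1QB, C1QC and CD74 differed by −0.75, −0.79, −0.60 and −0.60 in cohort 7a, and CLDN5 and AQP4 by −0.10 and −0.04. Striatal neuron genes were 27 of 29 higher in cohort 7a as well (median 0.58) and myelin genes 33 of 34 lower (median −0.46), but in each case 1 of the 2 controls carried the difference. The striatal score was −0.08, 0.39 and 0.63 in the LD animals and 0.57 and −1.04 in Control 1 and 2 of cohort 7a. The myelin score was −0.32, −0.55 and −0.14 in the LD animals and 0.73 and −0.40 in the controls. The groups overlapped for both scores, and the part of these markers in the other lists was not tested. Ribosomal protein genes were 75 of 78 lower in cohort 7a, opposite to cohort 7b, and GABA and glycine genes 20 of 23 higher. Both counts went with Control 2 of cohort 7a, whose ribosomal score was 0.57 against −0.32 to 0.22 in the other 4 animals and whose GABA and glycine score was −0.71 against −0.10 to 0.29. The same animal had the highest astrocyte, microglia and interferon scores of the 5, and the groups of cohort 7a overlapped for the astrocyte and interferon scores and lay apart for the microglia and vascular scores. In cohort 7b the groups overlapped for the astrocyte, microglia and interferon scores and lay apart for the vascular score.

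**Figure D5:**
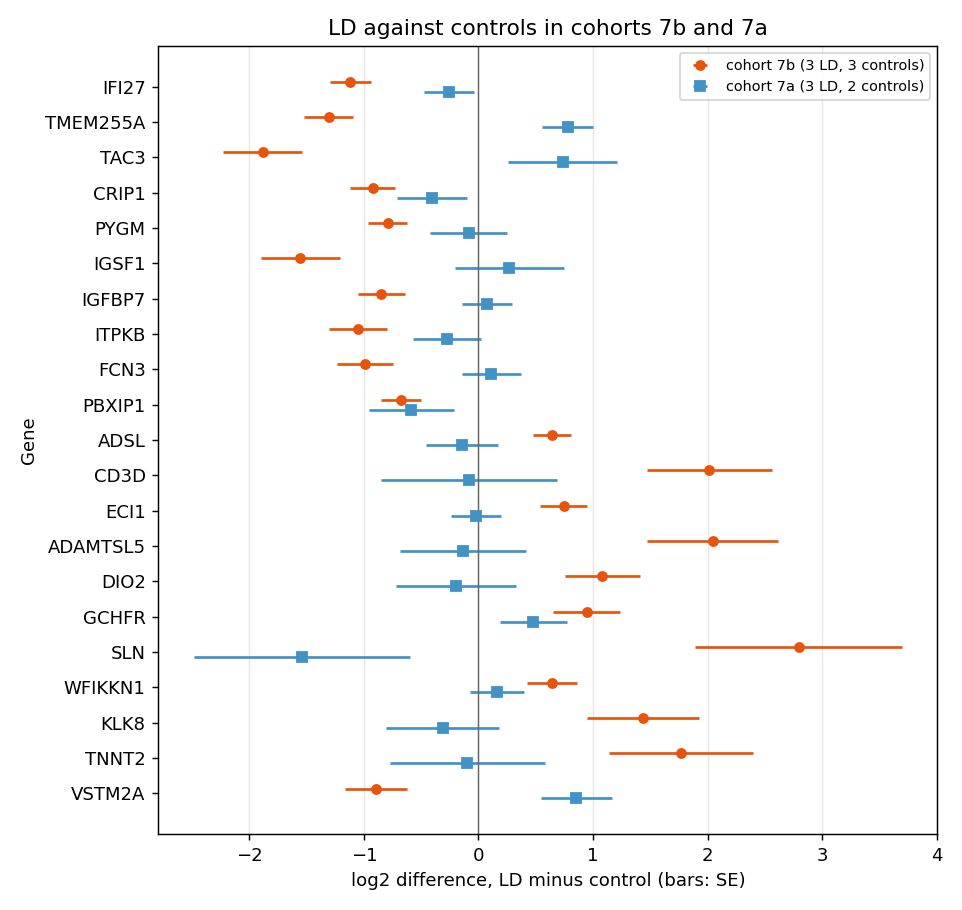
Log2 difference, LD minus control, with SE, in cohort 7b (circles, 3 LD and 3 control animals) and in cohort 7a (squares, 3 LD and 2 control animals) for the 20 leading genes of cohort 7b and for VSTM2A. TMEM255A, TAC3, SLN and VSTM2A lie on opposite sides of 0 in the 2 cohorts, and PBXIP1, at −0.67 and −0.59, has nearly the same value in both.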

How the data were processed

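The authors aligned the reads of polyA-selected libraries to the MacaM assembly with STAR 2.5.2b, counted them on genes with HTSeq 0.6.1p1 and used DESeq2 for their own tests. What the authors deposited is a table of TPM per gene and animal, in which every library sums to 1000000. How gene lengths entered them is not given in the sources used here, and the depth of each library is unknown. The strand and pairing of the libraries are described in more than one way.

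Here TPM were transformed to log2(TPM + 1), and genes averaging 10 TPM or more across the 24 animals entered a fit with limma 3.58.1 and R 4.3.3 (empirical Bayes with trend, two-sided, Benjamini-Hochberg adjustment over all tested genes, threshold 0.05), LD against control in the 6 animals of cohort 7b. An interaction of LD with cohort was fitted to the 11 LD and control animals of cohorts 7a and 7b. Standard errors are moderated. Lists are described by counts and medians, and scores by the mean of centred log2 values, with no test. The comparison, the lists and the rules for named genes were chosen with earlier results of these data known. Named were the 10 leading genes by p in each direction, fixed striatal and myelin genes, up to 4 genes of each other list by p, TNFSF10, CRIP1 and TAGLN, and the 3 genes with the smallest interaction p. Markers named outside these rules were chosen after their values were seen. An item that the rules would name is not reported here. The script was tested on simulated data. Alternatives were pseudocounts of 0.1 and 8, filters of 1 and 100 TPM and none, TMM rescaling (trim of 30% for log ratios and 5% for mean levels), all 24 animals in the fit, array weights, no trend, the striatal minus the myelin score as a covariate, and each animal left out in turn. Leaving out Control 3 and LD 2 together was chosen after seeing the data. Tables were made with Python 3.11.15, numpy 2.4.6 and pandas 2.3.3, and plots with matplotlib 3.10.9.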

Additional observations from a re-analysis of the deposited data

Results flagged for a closer look

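For 3 of the named genes the LD animals and the controls lay apart in opposite order in cohorts 7b and 7a. The log2 difference in cohort 7b minus that in cohort 7a was −2.09 for TMEM255A (SE 0.30, limma interaction term, adjusted p = 0.257), −1.75 for VSTM2A (SE 0.41, adjusted p = 0.975) and 4.34 for SLN (SE 1.26, adjusted p = 0.975), so none passed the adjusted threshold. Cohort 7a had 2 controls. SLN was at 2.45, 2.98 and 4.14 TPM in LD animals and at 21.6 and 5.44 TPM in controls of cohort 7a, and its highest level in cohort 7b was that of LD 2 at 69.4 TPM.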

How the results depend on the processing

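No gene passed an adjusted p of 0.05 under any setting tried, in cohort 7b (smallest adjusted p from 0.314 with array weights to 1.00) or for the difference from cohort 7a (from 0.121 without the trend to 1.00). Genes in cohort 7b at an unadjusted p under 0.05 numbered between 26 (mean of at least 100 TPM, 1925 genes tested) and 608 (no filter, 17208 genes tested), with 574 under array weights and 403 with all 24 animals in the fit. For the difference from cohort 7a they were 983 instead of 175 without Control 1 of cohort 7a and were 77 without LD 2 of that cohort. Leaving out 1 animal at a time, the score difference ranged from −0.11 to 1.45 for striatal neurons and from −0.64 to 0.071 for myelin. The log2 differences ranged from −0.074 to 1.56 for PPP1R1B, −0.23 to 1.80 for DRD1, −0.36 to 1.51 for PENK, −0.040 to 1.91 for PDYN, −0.20 to 1.37 for TAC1, −0.27 to 2.13 for ADORA2A, −0.59 to 0.53 for MBP, −0.66 to 0.39 for MOBP, −0.66 to 0.065 for MOG, −0.67 to 0.089 for CNP, −0.032 to 0.57 for RPS20, −1.04 to 0.37 for GFAP, −0.41 to 0.21 for P2RY12 and −0.36 to 0.19 for CX3CR1. Without both Control 3 and LD 2, some genes changed sign, with DRD1 at −0.085, PENK at −0.11, MBP at 0.41, MOBP at 0.22 and GFAP at 0.31. PPP1R1B, DRD2, PDYN, TAC1 and ADORA2A stayed higher in LD animals, and MOG and CNP stayed lower. The striatal neuron list then had 20 genes higher and 9 lower (median 0.08). The myelin list had 12 higher and 22 lower (median −0.11). With the striatal minus the myelin score as a covariate, PENK was at −0.18, MBP at 0.46, MOBP at 0.38, MOG at 0.051, CNP at 0.038 and GFAP at 0.29. MBP was at 0.11 and CX3CR1 at 0.036 after TMM rescaling. Apart from the left-out animals the causes were not tested. The other named genes kept their sign in every setting. No paired analysis was possible because the labels carry no replicate numbers. The precision is limited by 3 animals a group.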

Other observations

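Several further gene groups had leading genes with lower levels in LD animals of cohort 7b, and the median of all genes was −0.09. FKBP5, a cochaperone induced by glucocorticoids, was at 10.3, 17.0 and 17.3 TPM in the controls and at 9.90, 9.51 and 7.14 TPM in LD animals (log2 difference −0.67, SE 0.27, −0.55 without Control 3). MT2A, a metallothionein, was at 664, 421 and 519 TPM and at 408, 314 and 402 TPM (log2 difference −0.50, SE 0.23). The groups did not overlap for either gene. Of the 11 glucocorticoid and stress genes tested, 7 were lower and 4 higher, with a median of −0.09 that equals that of all genes to 2 decimals and was 0.01 without LD 3 and 0.03 after TMM rescaling. BAG3, a cochaperone of the heat shock response, was at 14.1, 20.01 and 30.6 TPM in the controls and at 12.3, 12.9 and 12.8 TPM in LD animals (log2 difference −0.66, −0.38 without Control 3), and 14 of 18 heat shock genes were lower (median −0.16, −0.0048 without Control 3, and 0.08 without LD 3). HSPB1, of the same list, went the other way, at 145, 166 and 331 TPM and at 221, 274 and 250 TPM. It was higher by 0.31, and by 0.67 without Control 3 (limma, unadjusted p = 0.0099, adjusted p = 0.9999). GPR17, a receptor of maturing oligodendrocyte precursors, was at 30.6, 40.8 and 52.9 TPM and at 25.3, 28.4 and 23.5 TPM (log2 difference −0.64, −0.45 without Control 3). NEFM, a neurofilament subunit, was at 101, 71.3 and 227 TPM and at 72.1, 61.5 and 41.8 TPM (log2 difference −1.03, −0.56 without Control 3). The list of genes common to all neurons, from which it comes, was 5 higher and 10 lower with a median of −0.06, or 8 higher and 7 lower after TMM rescaling.

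Genes of cholesterol synthesis were 12 higher and 10 lower, with a median of 0.05 that was −0.16 without LD 2, 0.27 without LD 3 and 0.17 with 16 higher and 6 lower after TMM rescaling. SREBF2, the main regulator of that pathway, differed by 0.35 (SE 0.24) and SREBF1, the regulator of fatty acid synthesis, by −0.48 (SE 0.24). Respiratory chain genes were 47 higher and 29 lower (median 0.05, −0.05 without LD 3, and 0.17 with 69 higher and 7 lower after TMM rescaling). SDHB, a subunit of complex II, was at 305, 328 and 290.1 TPM in the controls and at 378, 322 and 404 TPM in LD animals, and NDUFS6 of complex I differed by 0.32 (SE 0.23). None of these genes passed an adjusted p of 0.05 (limma).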
